A study of Mus musculus with 58 samples.

Results

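Insulin-producing cells of the fetal mouse pancreas were divided into those caught in the cell cycle and those at rest, on the last embryonic day sampled (E18.5). An insulin cell was a well with at least 2000 transcripts and 500 genes, whose insulin genes Ins1 and Ins2 together held 1% or more of all transcripts and 3 or more times as many as glucagon (Gcg), somatostatin (Sst), pancreatic polypeptide (Ppy) and ghrelin (Ghrl) each did. Of 605 such cells among 898 retained E18.5 wells and 4318 in the whole series, 54 had a transcript of at least 2 of 6 mitotic genes (Top2a, Mki67, Ccnb1, Ccnb2, Plk1, Tpx2) and are called cycling. Another 456 had a transcript of none of the 6 and are called resting, and 95 had exactly 1 and belong to neither. The cells were chosen by the measured values of the 6 mitotic and the 6 hormone genes, so their values are given as a description with no test, and all other genes were compared.

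The cells were sorted one per well into 384-well plates and read by SORT-seq, which counts transcripts with molecular identifiers. Embryos came from pregnant females that carry MIP-GFP, a transgene that puts GFP under the mouse insulin promoter. No strain, and no genotype for the single embryos, is given in the sources used here. No drug, deletion or other treatment is named for any group. All E18.5 cells come from 3 plates of 1 experiment, EP16, and nothing in the labels says that their embryos differed. P-values therefore cannot be read as measuring a spread between embryos. They rest on how far the difference between cycling and resting cells varied from plate to plate, pooled over genes, as described with the fit. The plate sorted for MIP-GFP gave 294 insulin cells, of which 24 were cycling and 233 resting. Its libraries carry E14.5 in their titles and E18.5 as their stage, and the stage entry was used. The plate named mosquito is labelled as live cells that excluded a viability dye and gave 291 insulin cells out of 301, of which 27 were cycling and 209 resting. It bears the same P6 code as the MIP-GFP plate, and the live plate gave only 20 insulin cells out of 278, and whether the mosquito plate was sorted for GFP is not given in the sources used here. The live plate held 3 cycling and 14 resting insulin cells, too few for the fit.

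Beta cells, the insulin cells of the islet, are added from late gestation on both by formation from precursors and by division of cells that already make insulin. D-type cyclins with Cdk4 carry a cell out of rest, E2F factors then switch on the genes of DNA replication, and cyclin A and B with Cdk1 drive it through G2 and mitosis. Many mitotic genes share a short promoter element, the cell cycle homology region, read in resting cells by a repressor complex and in G2 by activators that include B-Myb and Foxm1. Prolactin and the placental lactogens, acting through Prlr, and the kinase inhibitors of the Cip, Kip and Ink4 families are known to raise or hold back beta-cell division.

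The promoters below are shown because many mitotic genes that moved together hold the same letters in them. In the RefSeq windows of 300 bases around the start of each gene (250 before it and 50 after, build GRCm38.p6, 1 window per gene), the core letters of the cell cycle homology region, TTTGAA read on either strand, stood in 67.2% of 64 G2 and mitosis genes. They stood in 10.8% of the 5715 tested genes with a window and in 15.8% of 38 S phase genes. CCAAT, also on either strand and able to share 1 end base with those letters, stood in 71.9%, 39.4% and 60.5% of the same sets, and both together in 57.8% of the mitotic genes against 4.7% of all tested genes. The E2F letters TTTGGCGC or TTTCCCGC stood in 34.2% of the S phase windows, 9.4% of the mitotic windows and 3.1% of all. Such matches describe letters in a window, and a window without them says nothing of the factor. The stretches run from 120 bases to 1 base before the RefSeq start, 5′ to 3′ on the strand of the gene, with TTTGAA (or TTCAAA, its reverse complement) and CCAAT (or ATTGG) in capitals. They belong to the kinase gene Cdk1 (chr10:69352913-69353032, minus strand), the anaphase activator Cdc20 (chr4:118437344-118437463, minus strand), the ubiquitin-conjugating enzyme Ube2c (chr2:164769809-164769928, plus strand), the GTPase-activating protein gene Arhgap11a (chr2:113848662-113848781, minus strand) and topoisomerase Top2a (chr11:99024190-99024309, minus strand), 1 of the 6 genes of the rule. These 5 were printed because they hold both sets of letters, and they are the minority: of 15 such stretches of leading mitotic genes or genes of the rule, 6 held TTTGAA on either strand, 9 did not, and 13 held CCAAT. Birc5 (chr11:117849117-117849236, plus strand), survivin, is shown as one with neither.
Cdk1: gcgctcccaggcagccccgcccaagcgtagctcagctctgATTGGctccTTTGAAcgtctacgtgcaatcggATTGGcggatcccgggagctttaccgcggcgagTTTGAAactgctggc
Cdc20: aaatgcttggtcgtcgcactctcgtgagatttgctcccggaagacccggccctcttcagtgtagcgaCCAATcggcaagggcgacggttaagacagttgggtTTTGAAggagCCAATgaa
Ube2c: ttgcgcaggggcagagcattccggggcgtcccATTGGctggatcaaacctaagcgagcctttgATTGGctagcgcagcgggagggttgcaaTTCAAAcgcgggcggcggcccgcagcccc
Arhgap11a: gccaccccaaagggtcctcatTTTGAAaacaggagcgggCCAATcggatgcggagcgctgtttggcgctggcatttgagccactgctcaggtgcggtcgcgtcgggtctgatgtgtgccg
Top2a: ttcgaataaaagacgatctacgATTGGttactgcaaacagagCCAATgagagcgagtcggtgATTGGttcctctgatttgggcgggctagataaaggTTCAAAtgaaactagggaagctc
Birc5: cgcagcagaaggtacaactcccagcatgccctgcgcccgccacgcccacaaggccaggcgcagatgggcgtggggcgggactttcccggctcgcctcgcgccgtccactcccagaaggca

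Cycling cells made up a similar share of the insulin cells on the 2 large plates. They were 8.16% on the MIP-GFP plate (24 of 294, Wilson 95% interval 5.55 to 11.9), 9.28% on the mosquito plate (27 of 291, 6.46 to 13.2) and 15.0% on the live plate (3 of 20, 5.24 to 36.0). The intervals overlap, and they cover counting error only. Among the 54, Ccnb2, the B-type cyclin, was found in 49 cells, the proliferation antigen gene Mki67 in 42, Top2a in 33, the spindle gene Tpx2 in 30, the mitotic kinase Plk1 in 25 and Ccnb1 in 22. By number of genes found, 21 cells had 2 of the 6, 9 had 3, 3 had 4, 6 had 5 and 15 had all 6. The share was higher in cells with more transcripts: on the MIP-GFP plate it was 2.04%, 8.16% and 14.3% in the shallowest, middle and deepest 98 insulin cells, and on the mosquito plate 4.12%, 9.28% and 14.4% in sets of 97. With cells thinned to 5000 transcripts before the class was set and shallower cells left out, the shares were 5.24% of 267 cells on the MIP-GFP plate, 6.202% of 258 on the mosquito plate and 10.5% of 19 on the live plate. The deepest cells still had the highest share after thinning, 1.41%, 4.08% and 9.18% on the MIP-GFP plate and 4.69%, 3.09% and 10.3% on the mosquito plate, in the same order of depth. The median cycling cell also held more transcripts than the median resting cell, 18905 against 12089 on the MIP-GFP plate and 25206 against 18799 on the mosquito plate. For this reason cycling cells were paired within their plate with resting cells of nearly the same transcript total, where such a resting cell was found.

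**Figure D1:**
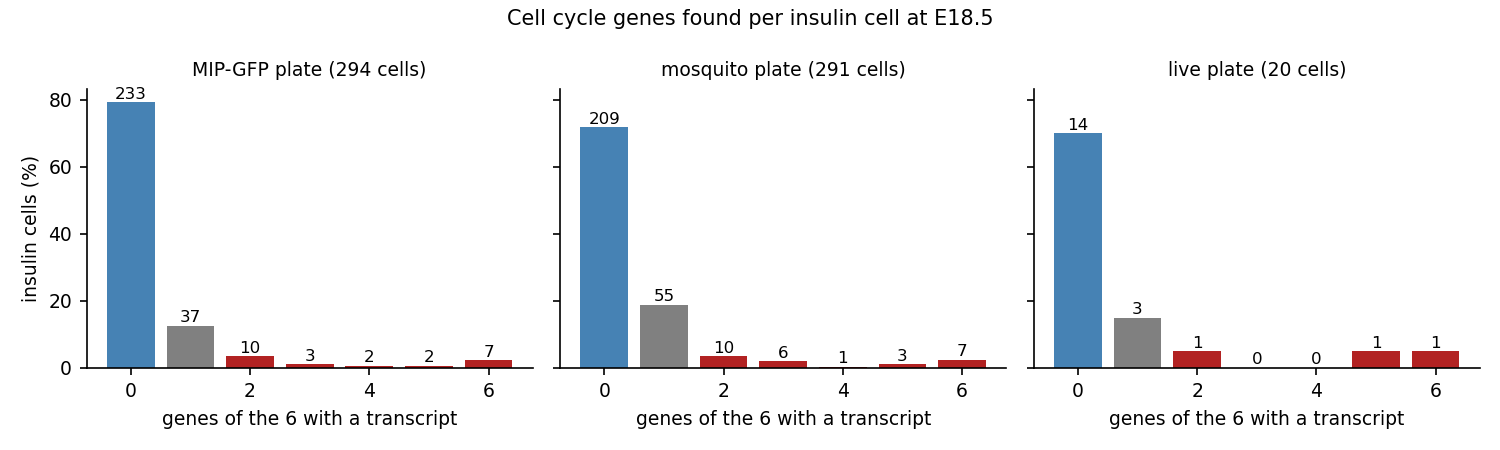
Percent of insulin cells on each E18.5 plate (vertical axis) by the number of the 6 mitotic genes with a transcript (horizontal axis), with the number of cells above each bar; blue is resting, grey is 1 gene, red is cycling. Cells with 2 genes and cells with all 6 are more frequent than cells with 4 on the 2 large plates.

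The 54 cells were not alike in their other cell cycle transcripts. A list of 50 S phase genes and a list of 79 measured genes of G2 and mitosis, neither with any of the 6, were read as a share of each cell's transcripts and set against the highest resting cell of the same plate. Of the 54 cells, 11 lay above it for both lists, 25 for the G2 and mitosis list alone and 18 for neither, while 94 of the 95 cells with exactly 1 gene lay above it for neither. All 21 cells with 5 or 6 of the genes lay above the highest resting cell for G2 and mitosis, but 14 of the 21 cells with only 2 of the genes lay above it for neither list. The plates differed in this. Above neither list were 4 of 24 cycling cells of the MIP-GFP plate and 13 of 27 of the mosquito plate. Among cells with 2 genes these were 4 of 10 and 9 of 10. The highest resting cell for G2 and mitosis also differed, at 0.220% and 0.342% on these plates. Replication transcripts came mostly from the few cells above the highest resting cell for the S phase list. On the MIP-GFP plate 6 of 24 cycling cells gave 89.3% of the S phase transcripts of all cycling cells, and on the mosquito plate 3 of 27 gave 70.9%. The other cycling cells had S phase shares of 0.0502% and 0.0567%, beside 0.0527% and 0.0523% in resting cells of these plates. These other cells were left by a choice on the same list, so their low shares follow in part from it. Because the 6 genes are those of G2 and mitosis, a cell in early S phase with none of them counts as resting. On the mosquito plate 1 resting cell reached an S phase share of 0.444%, where the next reached 0.205%. That 1 cell set the bar for the S phase list on its plate, so cycling cells between these values count as below it.

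**Figure D2:**
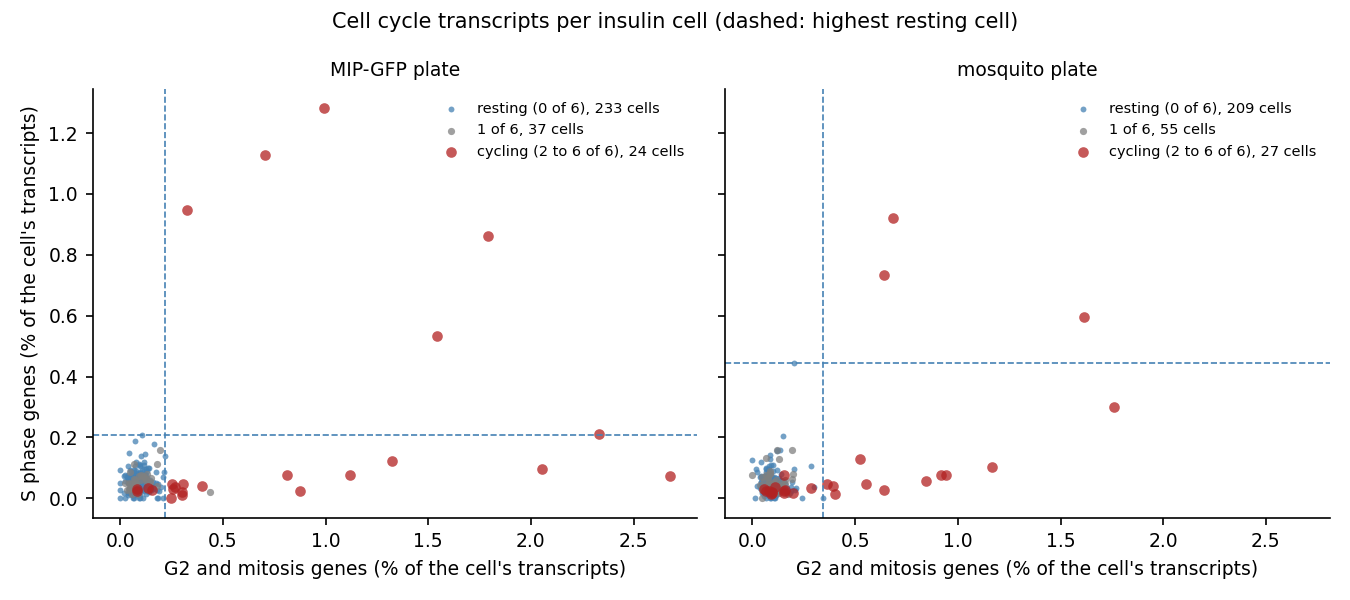
Share of each insulin cell's transcripts (percent) in the G2 and mitosis list (horizontal axis) and in the S phase list (vertical axis), on the MIP-GFP and mosquito plates; 1 point is 1 cell, and dashed lines mark the highest resting cell. Red cycling cells spread along the horizontal axis, and a few reach high S phase shares, up to 1.28% and 0.922%.

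Matched for depth, 23 cycling and 23 resting cells of the MIP-GFP plate (median 18332 and 18342 transcripts) and 27 and 27 of the mosquito plate (25206 and 25337) were summed and compared with edgeR's quasi-likelihood test, with the plate as block. Levels below are CPM. In sums of matched cells, a gene's transcripts were scaled by the total of genes past the count filter times edgeR's TMM factor. In the fit these factors ran from 0.864 to 1.086. On the mosquito plate, 326 Stmn1 transcripts in a cycling sum of 680872 are thus given as 571 CPM. Sums over marker lists, levels by number of the 6 genes found and ratios with a counting interval use totals without this factor. A difference is log2 of cycling over resting with its standard error (SE). Of 7507 genes tested, 403 were higher in cycling cells (5.37%) and 264 were lower (3.52%), 8.89% in all, at a Benjamini-Hochberg adjusted p of 0.05, and the median difference over all tested genes was −0.01. With 2 plates the fit had 1 residual degree of freedom, and edgeR took the spread of a gene from genes of like abundance and not from its own plates, so its adjusted p-values are small and each plate is shown. On the same sums DESeq2 called 58 genes higher and 6 lower (0.65% and 0.0673% of those it tested), and limma-voom called 359 and 195 (4.78% and 2.6%). Adjusted p-values are from edgeR's quasi-likelihood test with Benjamini-Hochberg adjustment over all 7507 genes unless DESeq2 is named.

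Genes of G2 and mitosis, other than the 6 that chose the cells, were higher in cycling cells. Of the 79 measured 68 passed the count filter, and 67 of these rose, beside 5.37% of all tested genes; with no filter 73 of 79 did. Their median difference was 5.17, or 4.02 with the 20 genes at 0 in resting cells set to a bound, and DESeq2 also called 32 of them. Cdk1, the kinase that starts mitosis, was at 269 and 140 CPM in cycling cells and 0 and 3.00 CPM in resting cells of the MIP-GFP and mosquito plates, with 2 transcripts in all in the resting sums. That is a ratio of 103 with a 95% counting interval of 28.2 to 857 (adjusted p = 3.6e-46, edgeR). Cenpa (chr5:30666777-30674830), the histone of the centromere, stood at 335 and 334 CPM against 0 and 3.00, a ratio of 174 (47.8 to 1441). For both genes each cycling sum lay above both resting sums, as it did for 21.6% of all tested genes. Ccna2, the cyclin of S phase and G2, was at 277 and 196 CPM against 2.04 and 9.01, a difference of 5.20 ± 0.345 (SE; adjusted p = 2.19e-47, edgeR).

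The parts of the mitotic machine moved with them. The kinetochore gene Spc25 was at 635 and 466 CPM in cycling sums against 81.5 and 45.0, a difference of 3.15 ± 0.202. Ube2c, which marks proteins for destruction at mitotic exit, was at 313 and 177 CPM against 12.2 and 7.50 (4.59 ± 0.316). Cks2, a partner of Cdk1, was at 167 and 114 CPM against 6.11 and 1.501 (5.22 ± 0.435). The spindle gene Hmmr, at 123 and 208 CPM, and the mitotic kinase Pbk, at 146 and 133 CPM, each had 2 transcripts in the resting sums. Another 4 mitotic genes had none there, and a floor of 3 transcripts over both resting sums gives lower bounds. Birc5, survivin of the chromosomal passenger complex, was at 125 and 91.1 CPM in cycling cells and at least 36.9-fold higher. Cdc20 was at least 30.9-fold higher, and Arhgap11a and the centrosome kinase Nek2 were each at least 26.9-fold higher. DESeq2 called Nek2 (adjusted p = 4.64e-04) and gave Birc5, Cdc20 and Arhgap11a an adjusted p of 1.

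**Figure D3:**
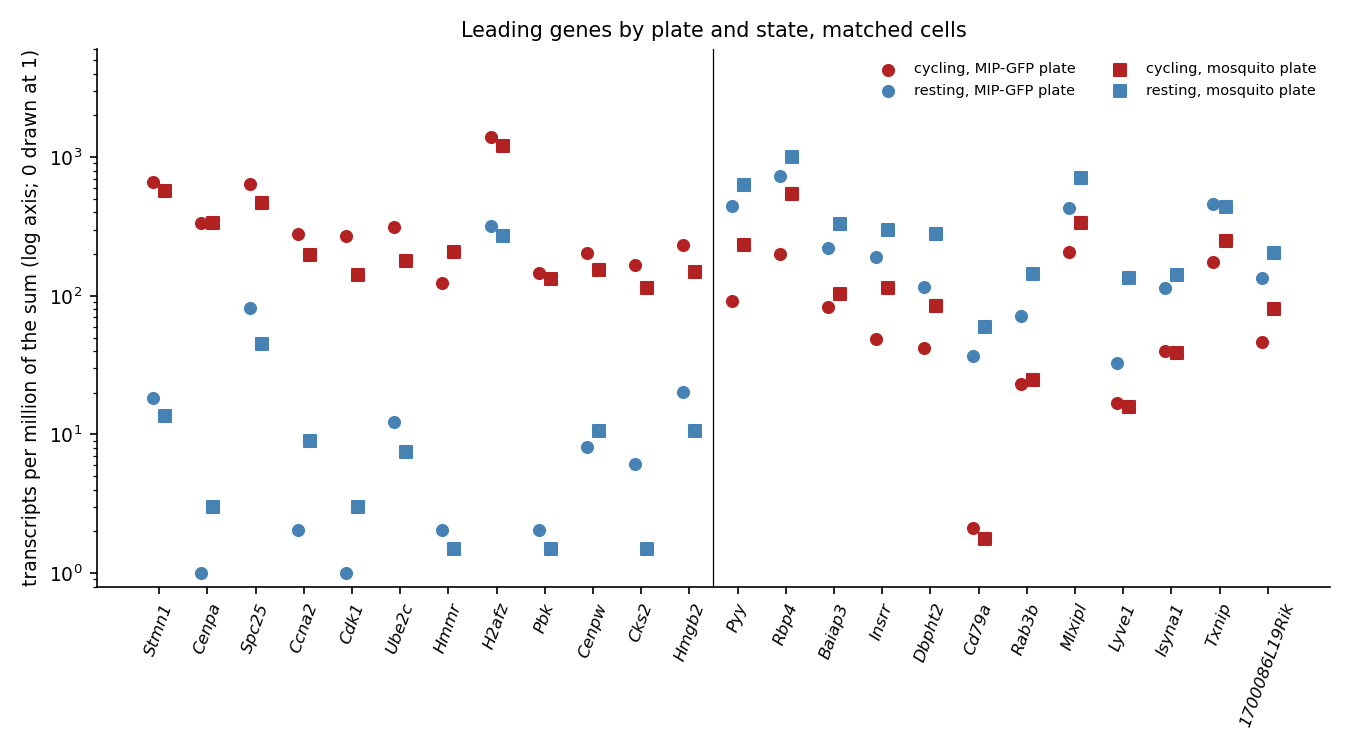
Levels in CPM (log axis, 0 drawn at 1) of the 12 leading higher genes (left) and the 12 leading lower genes (right) in the sums of matched cells; circles are the MIP-GFP plate, squares the mosquito plate, red cycling and blue resting. The 24 genes were chosen among those that moved the same way on both plates, so that agreement is not a result. The gap is wider for most of the higher genes than for most of the lower genes, but not for all. H2afz rose by 2.15 (log2), while Cd79a fell by 4.53.

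Chromatin and tubulin genes of dividing cells rose as well. Of 42 in the list 34 were tested and 24 were higher, beside 5.37% of all tested genes, with a median of 0.92, and DESeq2 called 9. Stmn1 (chr4:134468320-134473843), which destabilises microtubules, had the smallest p of all genes: 667 and 571 CPM in cycling sums against 18.3 and 13.51 in resting sums, a difference of 5.28 ± 0.254 (adjusted p = 1.33e-89, edgeR). It had a transcript in 23 of 23 and 24 of 27 matched cycling cells and in 6 of 23 and 7 of 27 matched resting cells. H2afz, a histone variant made outside replication too, was at 1408 and 1208 CPM against 320 and 270 (2.15 ± 0.161). Its median was 27 and 16 transcripts per cycling cell and 7 and 6 per resting cell, so the rise was spread over most cells. Hmgb2, a chromatin protein that bends DNA, was at 233 and 149 CPM against 20.4 and 10.5 (3.63 ± 0.304). Cenpw, a centromere protein, was at 203 and 152 CPM against 8.15 and 10.5 (4.16 ± 0.336). The histone chaperone Asf1b had 2 transcripts in the resting sums and stood at 65.6 and 89.3 CPM in the cycling sums.

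Genes of S phase and DNA replication were higher in the sums, carried by the few cells described above. Of 50 in the list 31 were tested and 29 rose, beside 5.37% of all tested genes, with a median of 2.75; with no filter 33 of 50 did, and DESeq2 called 6. Pcna, the sliding clamp of the replication fork, was at 318 and 280 CPM against 73.3 and 79.6, a difference of 1.95 ± 0.204 (adjusted p = 3.06e-19, edgeR; 3.23e-04, DESeq2). The median cell did not show it: 2 and 0 transcripts in cycling cells against 1 and 1 in resting cells, with highest values of 68 and 60 against 4 and 9. Uhrf1, which copies DNA methylation to the new strand, was absent from the resting sums and at least 11.95-fold higher in cycling cells (36.0 and 33.3 CPM). The checkpoint gene Clspn and the polymerase gene Pole were each at least 8.30-fold higher, and DESeq2 gave them adjusted p-values of 0.162 and 0.156. Atad2, a chromatin factor of replicating cells, had 3 transcripts in the resting sums and a ratio of 28.9 (9.56 to 143). Mcm3, a subunit of the replicative helicase, had 1 and a ratio of 22.9 (3.72 to 944; adjusted p = 2.36e-04 by edgeR, 0.594 by DESeq2).

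Of the genes that guard the step from rest to replication, Ccnd2 stood out. Ccnd2 (chr6:127125162-127152193), the D-type cyclin of the beta cell, was at 1040 and 937 CPM in cycling sums against 483 and 186 in resting sums. The difference was 1.12 on the MIP-GFP plate and 2.34 on the mosquito plate. The fitted difference was 1.68 ± 0.161 (adjusted p = 6.11e-23, edgeR), while DESeq2 gave an adjusted p of 0.222. With all cells unmatched the fitted difference was 1.119 (adjusted p = 2.17e-22, edgeR). The matched resting cells of the mosquito plate lay below all its resting cells, given further down, so the larger value there depends on the match. Per cell the median was 19 and 18 transcripts in cycling cells against 3 and 2 in resting cells of the same depth. Ccnd1, at 10.6 and 24.5 CPM against 22.4 and 7.50, and Cdk4, at 301 and 222 CPM against 240 and 242, did not pass the test, and their differences had opposite signs on the 2 plates. Ccnd3 did not pass the count filter.

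Of the 28 tested members of this list 7 rose and 1 fell, beside 5.37% and 3.52% of all genes. Foxm1, an activator of mitotic genes, had 1 transcript in the resting sums and stood at 48.7 and 49.0 CPM in the cycling sums (adjusted p = 1.39e-11, edgeR; 0.0512, DESeq2). E2f7, a repressor of E2F target genes, was at 36.0 and 21.01 CPM against 2.04 and 0. Inhibitors were among those that rose. Cdkn2c, the Ink4 inhibitor p18, was at 67.8 and 35.0 CPM against 2.04 and 1.501, a ratio of 25.9 (6.82 to 219). Cdkn1a, the inhibitor p21, was at 80.5 and 78.8 CPM against 32.6 and 28.5 (1.38 ± 0.320; adjusted p = 4.51e-04, edgeR), and Ccng2, a cyclin of arrested cells, at 46.6 and 29.8 against 6.11 and 7.50 (2.38 ± 0.537). The pocket protein gene Rbl1 rose by 2.11 (log2). DESeq2 gave Foxm1, E2f7, Cdkn2c, Ccng2 and Cdkn1a adjusted p-values from 0.0512 to 1. Cdkn1b, at 123 and 110 CPM against 97.8 and 90.1, and Cdkn1c, at 14.8 and 22.8 against 26.5 and 28.5, did not pass. Btg2, an antiproliferative gene that also marks endocrine precursors, fell: 290 and 331 CPM against 505 and 717 (−0.97 ± 0.162; adjusted p = 1.48e-07, edgeR; 0.0925, DESeq2).

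**Figure D4:**
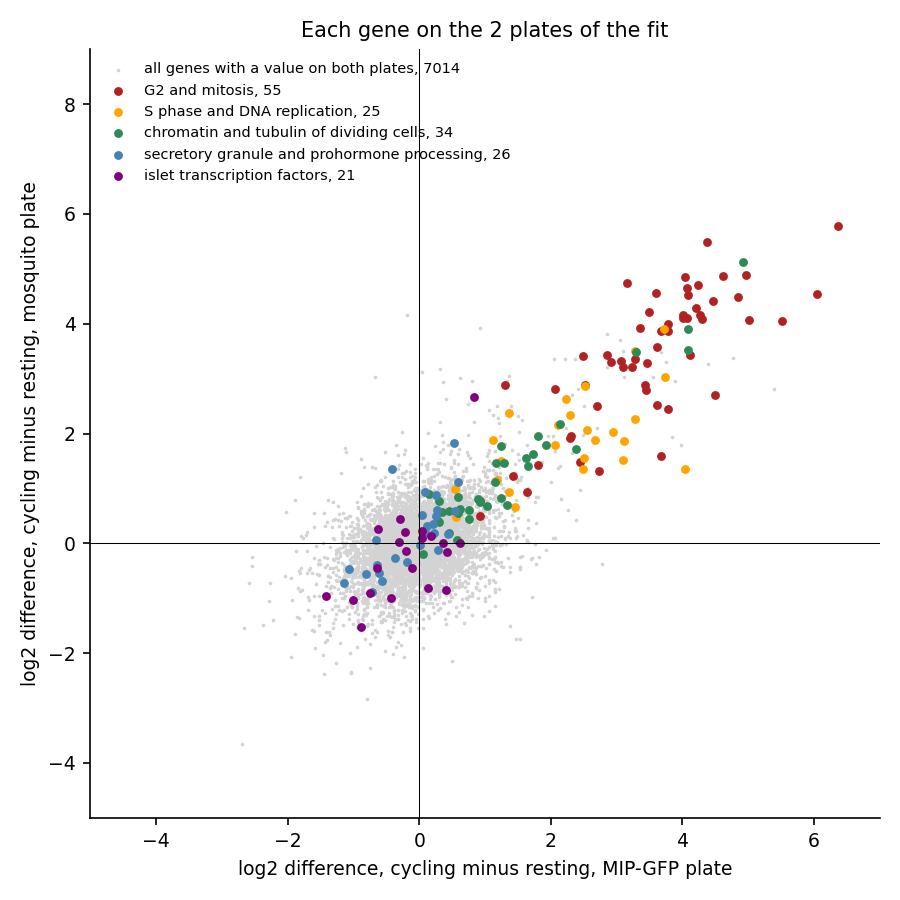
Log2 difference of each gene, cycling minus resting, on the MIP-GFP plate (horizontal axis) and the mosquito plate (vertical axis), for 7014 genes with a value on both; colours mark 5 gene lists. Mitotic (red) and most replication (orange) genes lie in the upper right corner, and granule and transcription factor genes lie near the centre.

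Among genes of growth signalling, 3 of 23 rose and 3 fell, beside 5.37% and 3.52% of all tested genes. The prolactin receptor gene Prlr was at 646 and 524 CPM in cycling sums against 450 and 185 in resting sums (0.98 ± 0.163; adjusted p = 1.16e-07, edgeR; 0.124, DESeq2). Both cycling sums lay above both resting sums, which held for 21.6% of all tested genes in this direction, and median cells held 12 and 7 transcripts against 5 and 2. On the live plate Prlr went the other way, 459 CPM in 3 cycling cells against 855 in 3 resting cells. Socs2, which prolactin signalling induces, rose by 0.59. Tph1, the enzyme that makes serotonin and a target of prolactin in beta cells, passed the test (1.29 ± 0.385; adjusted p = 0.013, edgeR) on the mosquito plate's values alone, 54.3 against 0 CPM, while the MIP-GFP plate had 40.2 against 46.9. Nfatc2, a factor of calcium signalling, fell by 0.93. Foxo1, a factor that insulin signalling keeps inactive, was at 102 and 114 CPM against 147 and 183 (−0.62 ± 0.211; adjusted p = 0.0421, edgeR), and the receptor gene Igf1r fell by 0.57. DESeq2 gave Tph1, Nfatc2 and Foxo1 an adjusted p of 1, and limma-voom called Prlr alone of the 6.

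Pdx1, Nkx6-1 and Neurod1, transcription factors that define the beta cell, did not pass the test. Pdx1 was at 29.6 and 19.3 CPM in cycling sums against 22.4 and 19.5, Nkx6-1 at 271 and 518 against 342 and 518, and Neurod1 at 620 and 650 against 723 and 726. Their differences ran from −0.19 to 0.19 with SEs from 0.152 to 0.465. Of the 22 islet factors tested 5 fell and 1 rose, beside 3.52% and 5.37% of all tested genes. Mlxipl, the glucose-sensing factor ChREBP, was at 208 and 336 CPM against 428 and 707, a fall on both plates (−1.06 ± 0.166; adjusted p = 1.33e-08, edgeR; 0.045, DESeq2), with 3 and 6 transcripts in the median cycling cell against 8 and 15. Fev and Hes6, known from endocrine precursors, fell by 1.38 and 1.22, Rfx6 by 0.90 and Rfx3 by 0.78. Sox11, a factor of immature cells, rose by 1.59 from few transcripts (82.6 and 54.3 CPM against 44.8 and 6.004). DESeq2 called only Mlxipl of these 6. The 7 precursor markers Neurog3, Fev, Tox3, Neurod2, Hes6, Sox4 and Btg2 summed to 626 and 588 CPM in cycling sums and 984 and 1521 CPM in resting sums, with 2 at 0 in each sum but the mosquito resting sum, and their part in these falls was not tested.

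Genes of insulin secretion moved in both directions. Of 30 tested, 5 rose and 3 fell, beside 5.37% and 3.52% of all tested genes, and DESeq2 called Npy of these 8. Npy (chr6:49822710-49829507), neuropeptide Y, which fetal and newborn beta cells make, was at 1374 and 602 CPM against 636 and 272 (1.13 ± 0.156; adjusted p = 5.99e-11, edgeR; 9e-04, DESeq2). The median cell held 11 and 8 Npy transcripts when cycling and 2 and 2 when resting. On the live plate it went the other way, 0 CPM in 3 cycling cells against 442 in 3 resting cells. The lipid receptor gene Gpr119 rose by 1.67, the cation channel gene Trpm5 by 1.06, Tmem27 by 0.77 and the phosphatase gene G6pc2 by 0.54. The calcium channel gene Cacna1a was at 80.5 and 142 CPM against 200 and 233 (−0.96 ± 0.201), Abcc8, the sulfonylurea receptor of the potassium channel that couples glucose to release, fell by 0.76, and Nnat by 0.53. The glucose transporter gene Slc2a2 was at 479 and 391 CPM against 572 and 351, the late marker Ucn3 at 44.5 and 47.3 against 61.1 and 54.0, and Iapp, which is released with insulin, at 17259 and 21863 against 16304 and 14438. These 3 did not pass the test (differences of −0.06, −0.31 and 0.34).

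Granule genes also split. Of 26 tested, 5 rose and 7 fell, beside 5.37% and 3.52% of all tested genes, and their median was 0.16. Chgb, a granin that packs the granule, was at 4512 and 5653 CPM against 3824 and 3125 (0.55 ± 0.157; adjusted p = 8.53e-03, edgeR), and Scg2 (0.55), Chga (0.49), Resp18 (0.86) and the neuropeptide precursor Vgf (1.17) rose with it. Pcsk1n, an inhibitor of the prohormone convertase, fell from 676 and 806 CPM in resting sums to 301 and 480 in cycling sums (−0.94 ± 0.158). The others that fell were Syt7 (−0.84), Cadps (−0.79), Scgn (−0.69), Cplx2 (−0.65), Aplp1 (−0.60) and Ptprn2 (−0.54). Some of these, not all, are genes of granule release and priming. DESeq2 gave Pcsk1n an adjusted p of 0.0648, and Syt7, Chgb, Vgf and Resp18 adjusted p-values from 0.305 to 1.

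The hormone genes chose the cells and are given as shares. Ins1 took 6.49% of the transcripts of matched cycling cells and 5.46% of matched resting cells on the MIP-GFP plate, and 9.87% against 5.02% on the mosquito plate. Ins2 took 6.77% against 5.94% and 15.9% against 11.9%. Ins1 stood at the highest value that the molecular identifiers allow, 1597 transcripts, in 11 of 24 cycling and 34 of 233 resting cells of the MIP-GFP plate, and Ins2 did in 13 and 59, so these shares are held down there, more often in cycling cells. Values on the mosquito plate reached 9601. Gcg, Sst, Ppy and Ghrl each took at most 0.032% of any of the 4 sums.

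The 12 leading genes that fell began with Pyy and Rbp4. Pyy (chr11:102106676-102107832), peptide YY of fetal islet cells, was at 91.0 and 233 CPM in cycling sums against 444 and 629 in resting sums (−1.76 ± 0.177; adjusted p = 8.84e-21, edgeR; 5.02e-05, DESeq2). Few cells carried that gap. The median was 1 and 2 transcripts in cycling cells against 3 and 2 in resting cells, and 1 resting cell of the mosquito plate held 188. Rbp4 (chr19:38116629-38125281), the retinol carrier, was at 201 and 543 CPM against 727 and 1007 (−1.30 ± 0.160), and here the median cell differed, 2 and 8 against 12 and 18. Baiap3, which acts in dense-core vesicle traffic, was at 82.6 and 103 CPM against 222 and 329 (−1.57 ± 0.202). Insrr, the insulin-receptor-related receptor, was at 48.7 and 114 against 189 and 299 (−1.59 ± 0.210). DESeq2 called these 4, with adjusted p from 5.02e-05 to 0.0252.

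The other 7, besides Mlxipl, had smaller differences or fewer transcripts. Txnip, a glucose-induced brake on thioredoxin and a known target of ChREBP, was at 176 and 250 CPM against 456 and 438 (−1.07 ± 0.171; DESeq2 adjusted p = 0.106). Rab3b, a small GTPase of vesicles, was at 23.3 and 24.5 CPM against 71.3 and 143, and Isyna1, the first enzyme of inositol synthesis, at 40.2 and 38.5 against 114 and 141. Dbpht2 fell by 1.64 and 1700086L19Rik by 1.40. Cd79a, best known from B cells, was at 2.12 and 1.75 CPM against 36.7 and 60.0, and Lyve1, best known from lymphatic vessels, at 16.9 and 15.8 against 32.6 and 134. The 11 immune markers summed to 83.3 and 72.0 CPM in cycling and 40.6 and 53.2 CPM in resting sums, with 8 or 9 at 0, and the 9 endothelial markers to at most 15.0 CPM, with 7 or 8 at 0. DESeq2 gave these 7 genes adjusted p-values from 0.0879 to 0.513.

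Genes of the imprinted Meg3 and Dlk1 locus on chromosome 12 fell. Meg3 (chr12:109541001-109571726), a long noncoding RNA, was at 1603 and 2098 CPM in cycling sums against 2777 and 4201 in resting sums (−0.90 ± 0.153; adjusted p = 2.71e-07, edgeR; 1.06e-03, DESeq2). The groups did not overlap, which held for 21.7% of all tested genes in this direction, and the median cell held 33 and 33 transcripts when cycling and 59 and 97 when resting. Rian, a further noncoding RNA of the locus, fell by 0.73, and Dlk1 was at 692 and 874 CPM against 1096 and 1129 (−0.51 ± 0.150; adjusted p = 0.0117, edgeR). They were the 3 called of 12 imprinted genes tested, beside 3.52% of all tested genes called lower, and the median of the 12 was 0.12. DESeq2 called Meg3 of the 3.

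Lists of stress and metabolic genes differed in the share that passed the test. Hspa5, the main chaperone of the endoplasmic reticulum, was at 2704 and 4599 CPM against 3268 and 4135 (−0.06 ± 0.154). Of 28 genes of protein folding and its stress response 1 passed the test, Ppp1r15a (−0.77), beside 3.52% of all tested genes called lower. Immediate early genes, which tissue dissociation can raise, were lower in cycling cells for 4 of 17, beside 3.52% of all tested genes: Klf2 (−1.73), Zfp36 (−0.86), Ier2 (−0.66) and Junb (−0.53). Of 11 genes of glycolysis 2 fell, Aldoc (−1.93) and Aldoa (−0.56), beside the same 3.52%. Of 79 ribosomal protein genes, a list added after other results were seen, 1 rose, beside 5.37% of all tested genes. DESeq2 gave the 7 called genes named here adjusted p-values from 0.945 to 1.

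Markers of other cells were low in both states. Acinar, duct, mesenchymal, endothelial, immune, erythroid and neural markers together took 0.119% of the transcripts of matched cycling cells and 0.115% of matched resting cells on the MIP-GFP plate, and 0.112% and 0.155% on the mosquito plate. The acinar sum was 147 CPM in cycling and 551 CPM in resting cells of the mosquito plate. Among 6 duct genes tested, the keratin gene Krt19 fell (−2.86) and Spp1, osteopontin, passed as higher (1.76 ± 0.311; adjusted p = 8.72e-07, edgeR), but with all cells unmatched its difference was 0.21 (adjusted p = 0.559, edgeR). Slc38a5, an amino acid transporter listed for alpha cells, was at 686 and 685 CPM against 597 and 422 (0.45 ± 0.155).

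The edge of the rule showed where these levels changed. In all insulin cells of a plate, taken by the number of the 6 genes found and with no test, Cdk1 was at 4.7 and 4.0 CPM in resting cells, 3.2 and 8.0 with 1 gene, 47.4 and 9.6 with 2, 71.8 and 16.8 with 3 or 4, and 568 and 256 with 5 or 6. Cells with 1 gene thus lay close to resting cells, and cells with 2 only partly above them. Cenpa was higher from 2 genes on, at 168 and 81.5 CPM, and at 629 and 324 with 3 or 4. Pcna was lowest in cells with 3 or 4 genes, 35.9 and 27.9 CPM, and highest with 5 or 6, 792 and 499 CPM. Ccnd2 already stood at 1025 and 868 CPM with 2 genes, beside 511.6 and 391.9 in resting cells. Meg3 was at 4184 and 3996 CPM in resting cells, 3966 and 3779 with 1 gene, and 1258 and 2763 with 2. Mlxipl was at 543 and 652, 612 and 608, and 177 and 413 CPM in the same order.

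**Figure D5:**
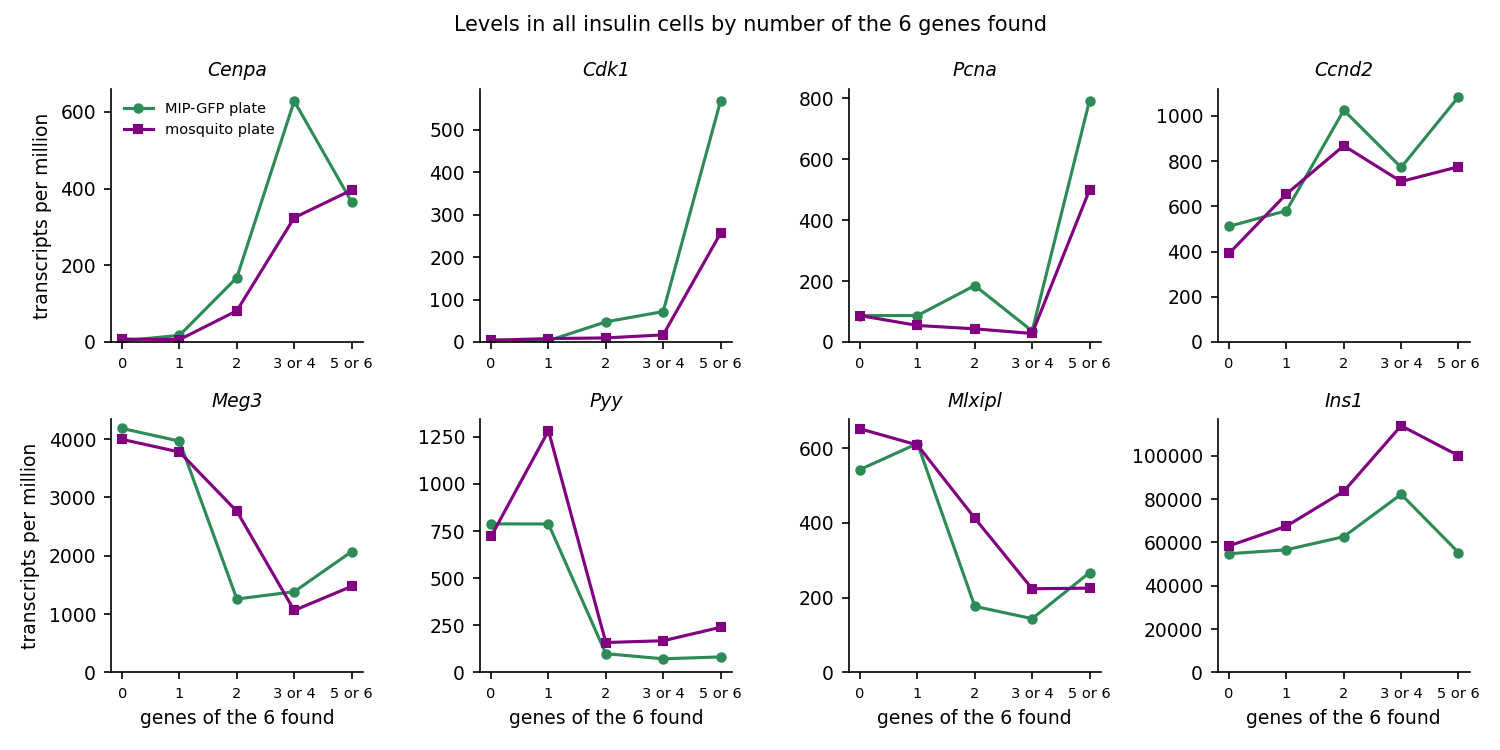
Levels in CPM (vertical axes, from 0) of 8 genes in all insulin cells of the MIP-GFP plate (circles) and the mosquito plate (squares) by the number of the 6 mitotic genes found (horizontal axes); lines join groups of cells, not time points. Cdk1 and Pcna are highest with 5 or 6 genes, while Meg3 and Mlxipl are lower from 2 genes on than with 0 or 1.

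The 3 cycling cells of the live plate, which the fit did not use, were set beside 3 resting cells of like depth with no test. Of 207 genes called higher in the fit and with at least 10 transcripts there, 81.6% were higher in these cycling cells, against 50.1% of 2645 tested genes with as many. Of 106 genes called lower, 39.6% were higher. All 12 leading higher genes were higher there, but 9 of the 12 leading lower genes were higher too, and not lower. Stmn1 was at 946 against 68.99 CPM, Cdk1 at 459 against 0 and Pcna at 803 against 27.6. Among genes lower in the fit, Pyy was at 588 against 0 CPM, Meg3 at 2394 against 1863 and Mlxipl at 186 against 262.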

How the data were processed

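The deposited table holds expected counts: transcripts per gene and well that the authors estimated from molecular identifiers, not scaled for depth. BWA, Seurat and mm10 are named in the submitters' processing notes without versions, and the rest of that processing is not given in the sources used here. Wells were matched to plates by name; 1536 columns matched no label and were not used. Doublets were not called; per the labels, wells received single sorted cells.

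The members and gene lists were chosen with earlier results of these data known. Cycling cells were matched within their plate, without replacement, to the resting cell nearest in log2 transcripts, within 0.25. On the MIP-GFP plate 23 of 24 were matched, and the deepest, with 52112 transcripts, had no partner and was left out. On the mosquito plate all 27 were matched. Counts were rounded and summed per plate and state, with at least 10 cells per sum, leaving out spike-ins and the 6 rule genes. Sums were tested with edgeR 4.0.16 (quasi-likelihood, TMM scaling, filterByExpr, plate as block, Benjamini-Hochberg adjustment at 0.05). DESeq2 1.42.0 and limma-voom 3.58.1 were alternatives, the last chosen after the first pair were seen to differ. The standard error of a difference was taken from the F statistic. Counts were simulated for this comparison, with 7230 genes past the filter and changed genes at 20 CPM or more. There edgeR recovered 48% of 2-fold and 91% of 4-fold changes and called 5 unchanged genes. All genes were drawn with the same dispersion, 0.0132, and the same plate effect in both states. The simulation therefore cannot speak to the gap between edgeR and DESeq2. Plates are the block; the replicate numbers of libraries pair no samples, because wells of a plate's libraries share 1 name.

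Genes were named by a rule: the 12 with the smallest p in each direction, changed alike on both plates and at 20 CPM or more in a state; up to 4 called members of each list with the largest differences; and 21 genes set by name. Other called list members are named to account for a list's count, after their values were seen. Some listed genes are not reported here. Gene positions are from GENCODE M21. Of the listed genes, Mafa, Mycl, Sgol2a, Hbb-bs and Hbb-bt had no row. Levels by number of genes found use all cells of a plate, unmatched, and transcript totals without a TMM factor.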

Additional observations from a re-analysis of the deposited data

How the results depend on the processing

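The counts of genes higher and lower, 403 and 264, changed with the tool, the block and the choice of cells. They were 58 and 6 with DESeq2 (344 genes at an unadjusted p of 0.05), 191 and 37 with no replicate block, 87 and 20 with cells thinned before the class was set (also unmatched, with 14 and 16 cycling cells), and 826 and 592 with all cells unmatched. Genes lower numbered 168 with cells of 1 gene as their own state and 103 with the live plate, and genes higher numbered 316 and 299 there. Of 72 called named genes, DESeq2 called 24, limma-voom 68 and its robust form 67, while the unmatched fit kept 71 and the fit without the block 43. Of those tested in each setting, thinned cells kept 33 of 67, matching outside the hormone genes 57 of 70 and 3 of the 6 genes 53 of 66. With no filter, with totals without hormone genes, with matching outside the hormone genes and with 3 of the 6 genes, the counts of genes higher and lower stayed within 1.5 times. Leaving out wells above 3 times their plate's median, or with over 1% other-cell markers, left the matched cells unchanged.

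Single genes turned in 3 cases: Tph1 was −0.19 without the mosquito plate (4.17 without the MIP-GFP plate) and −0.19 in the authors' wells, and Spp1 was −0.29 when matched outside the hormone genes. With 1 plate left out, or only the authors' wells (which hold no mosquito wells), there was no residual spread and no test. The cycling share moved from 8.16% to 5.24% thinned and 4.76% with 3 of the 6 genes on the MIP-GFP plate, and from 9.28% to 6.20% and 5.84% on the mosquito plate. Planned fits at other stages, and of the difference between stages, were not run, since no other plate held 10 cycling insulin cells. Depth limits the resting side of mitotic genes, where most had under 10 transcripts in a sum.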

Other observations

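Of the 403 genes higher in cycling cells 276 lie outside the 4 cell cycle lists. Among them, chosen after their values were seen, are Phgdh and Psat1, which take the first steps of serine synthesis. Phgdh was at 123 and 194 CPM in cycling sums of the MIP-GFP and mosquito plates against 46.9 and 22.5 in resting sums (2.26 ± 0.267; adjusted p = 4.22e-15 by edgeR, 0.0211 by DESeq2). Psat1 was at 46.6 and 36.8 CPM against 6.11 and 3.00 (3.18 ± 0.578; adjusted p = 2.12e-06 by edgeR, 0.302 by DESeq2). Shmt2, which turns serine to glycine in mitochondria, did not pass (27.5 and 38.5 CPM against 18.3 and 33.0). Gmnn, which blocks a further round of replication, rose by 2.33. Among lower genes chosen in the same way, the neuronal tubulin gene Tubb3 fell by 1.36 and Gad1, which makes the transmitter GABA, by 1.63, with DESeq2 adjusted p-values of 0.413 and 0.552.

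At the other stages 15 of 395 insulin cells passed the same rule (3.80%, Wilson 95% interval 2.32 to 6.17), and 2 of 364 did after thinning to 5000 transcripts (0.549%, 0.151 to 1.98), beside 32 of 544 at E18.5 (5.88%, 4.20 to 8.19). These shares pool plates that differed and were not tested: as found, 6 of 60 passed on the E14.5 MIP-GFP plate (10.0%), 5 of 13 on the live plate of experiment EP10 at E15.5 (38.5%), 3 of 140 on its MIP-GFP plate (2.14%), 1 of 46 on the E13.5 MIP-GFP plate and 0 of 123 on the MIP-GFP plate of EP17 at E15.5, which allows a share of up to 2.44%. After thinning the 2 were on the EP10 MIP-GFP plate. On the E14.5 MIP-GFP plate, 6 such cells set beside 6 resting cells of like depth held 9 Cdk1 transcripts against 3, 9 Stmn1 against 7, and 1 Ccna2 against 1. Of 201 genes called higher at E18.5 with at least 10 transcripts there, 47.8% were higher in these 6 cells, against 49.8% of 5920 tested genes. The EP10 MIP-GFP plate at E15.5 differed: with 3 such cells beside 128 resting cells, not matched for depth, 61.4% of 329 genes called higher at E18.5 and 28.9% of 263 called lower were higher, against 44.5% of 7401 tested genes. Of these 3 cells, 1 held 1.86% of its transcripts in markers of other cells, where the 128 resting cells held at most 0.192%. On the EP10 live plate, 5 beside 4 cells, 51.4% of genes called higher, 53.6% of genes called lower and 48.0% of tested genes were higher.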
